A study of Mus musculus with 12 samples.

Results

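Genes of the endocrine pancreas and gut were followed as self-antigens in thymic epithelial cells, namely the hormone genes Ins1, Ins2, Gcg, Sst, Ppy, Pyy and Iapp, and the secretory granule genes Chga, Chgb and Ptprn. These 10 genes were chosen by symbol out of 34547 genes summed from the transcript estimates, and all 10 were also present in the deposited table of normalized values, which lists 34677 genes. Poly-A RNA had been sequenced from sorted cortical thymic epithelial cells (cTEC, Epcam+ CD45- Ly51+ UEA1-) and medullary thymic epithelial cells (mTEC, Epcam+ CD45- Ly51- UEA1+) of wild-type C57BL/6 mice (WT) and of Aβ0/0 mice, in which the H2-Ab1 gene is disrupted and MHC class II is lost in every cell of the animal. Each of the 4 groups held 3 libraries, each from a pool of 5 to 10 mice aged 4 to 6 weeks, and no agent was given to any group. The sorts yielded fewer mTEC from each Aβ0/0 pool than from any WT pool, so cell yield and genotype cannot be told apart in mTEC.

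Medullary thymic epithelial cells transcribe many genes that elsewhere mark a single tissue, and present their products to developing T cells, so that cells reacting to them are deleted or become regulatory T cells. Aire, a transcriptional regulator of mTEC, is needed for a large share of this promiscuous expression, and insulin is among the classical Aire-dependent antigens, since loss of thymic insulin predisposes to autoimmune diabetes. Ins1 and Ins2 encode the preproinsulins of the mouse, Gcg proglucagon (also the source of the gut peptide GLP-1), Sst somatostatin, Ppy pancreatic polypeptide, Pyy the gut peptide YY, and Iapp amylin, which beta cells release together with insulin. Chromogranin A (Chga) and chromogranin B (Chgb) are acidic proteins of the dense-core granule, and Ptprn encodes IA-2, a granule membrane protein that is a major target of autoantibodies in type 1 diabetes.

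The preproinsulin genes resemble each other closely, which bears on how reads are shared between them, and Ins2 was also the gene for which the study designed a PCR assay. The primers and the stretch they span are shown for that reason, beside the matching stretch of Ins1. The product covers bases 248 to 349 of transcript Ins2-204 (GRCm38, chr7:142678767-142679356, minus strand), runs from exon 2 into exon 3 of 3 and is coding throughout. The Ins1 stretch covers bases 387 to 482 of Ins1-201 (chr19:52264801-52264896, plus strand) within coding exon 2. Sequences are those of GENCODE vM21, and capitals mark bases that differ or have no partner in the alignment. Of 96 aligned bases, 87 were identical. Neither primer matched Ins1-201 over its full length.
Ins2 forward primer: gacccacaagtggcacaa
Ins2 reverse primer: atctacaatgccacgcttctg
Ins2 between the primers: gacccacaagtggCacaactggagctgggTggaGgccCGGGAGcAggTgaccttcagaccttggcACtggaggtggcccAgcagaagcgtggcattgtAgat
Ins1, matching stretch: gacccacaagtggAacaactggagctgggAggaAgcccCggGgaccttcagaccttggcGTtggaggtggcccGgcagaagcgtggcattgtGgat

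Over the leading transcript of each gene, 47 of the 425 windows of 31 bases in Ins2-204 also occurred in Ins1, so part of the reads could have been assigned to either gene. The windows come from GENCODE vM21, where Ins1-201 has 1062 bases and Sst-201 has 721, whereas the transcripts of those names in the deposited estimates have 1016 and 599 bases, so that the windows of these genes are not exactly those of the transcripts quantified. No window of Gcg, Sst, Ppy, Pyy, Iapp or Chgb occurred in a transcript of another gene on either strand. For Chga 12 of 1853 windows were shared, and for Ptprn 131 of 3524, the latter with Gm28294, an annotated antisense gene. Because the library kit does not mark the strand, reads of Ptprn and of its antisense gene cannot be told apart in that stretch. Iapp lies within the span of Slco1a5, an organic anion transporter gene of the opposite strand, without sharing such a window with its transcripts.

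Promoters are shown for 4 peptide genes that are mostly made outside the beta cell and were high in WT mTEC and variable in Aβ0/0 mTEC (Gcg, Ppy, Pyy and Sst), and for Iapp, which was high in mTEC of both genotypes. Each runs 300 bases, from 250 bases before the transcription start to 50 bases after its first position, 5′ to 3′ on the strand of the gene, and comes from RefSeq on GRCm38.p6. Promoters of 9 of the 10 genes were in the table, all except Ins2. Capitals mark TATAAA and TGACGTCA, searched on both strands.
Gcg promoter, chr2:62483604-62483903, minus strand: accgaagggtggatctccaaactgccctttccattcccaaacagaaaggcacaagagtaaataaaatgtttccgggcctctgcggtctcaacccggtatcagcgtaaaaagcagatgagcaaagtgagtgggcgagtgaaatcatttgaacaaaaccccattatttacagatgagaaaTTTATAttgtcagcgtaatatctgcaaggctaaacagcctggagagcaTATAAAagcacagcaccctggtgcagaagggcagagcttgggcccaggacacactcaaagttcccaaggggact
Ppy promoter, chr11:102101270-102101569, minus strand: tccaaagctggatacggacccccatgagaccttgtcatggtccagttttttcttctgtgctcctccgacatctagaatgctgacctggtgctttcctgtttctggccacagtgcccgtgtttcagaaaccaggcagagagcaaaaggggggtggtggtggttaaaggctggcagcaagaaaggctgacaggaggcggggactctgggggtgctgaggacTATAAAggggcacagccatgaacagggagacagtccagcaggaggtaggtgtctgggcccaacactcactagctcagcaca
Pyy promoter, chr11:102107783-102108082, minus strand: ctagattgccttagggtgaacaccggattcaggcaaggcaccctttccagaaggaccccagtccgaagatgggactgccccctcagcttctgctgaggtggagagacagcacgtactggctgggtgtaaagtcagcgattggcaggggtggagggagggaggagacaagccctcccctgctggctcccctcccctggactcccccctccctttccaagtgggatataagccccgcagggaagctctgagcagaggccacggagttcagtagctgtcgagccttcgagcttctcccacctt
Sst promoter, chr16:23890795-23891094, minus strand: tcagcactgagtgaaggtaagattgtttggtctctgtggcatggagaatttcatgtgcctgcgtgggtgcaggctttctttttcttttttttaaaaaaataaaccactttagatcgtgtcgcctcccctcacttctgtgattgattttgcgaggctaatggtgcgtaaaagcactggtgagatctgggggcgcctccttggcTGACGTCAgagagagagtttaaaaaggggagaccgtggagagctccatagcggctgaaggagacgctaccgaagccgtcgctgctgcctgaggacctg
Iapp promoter, chr6:142298175-142298474, plus strand: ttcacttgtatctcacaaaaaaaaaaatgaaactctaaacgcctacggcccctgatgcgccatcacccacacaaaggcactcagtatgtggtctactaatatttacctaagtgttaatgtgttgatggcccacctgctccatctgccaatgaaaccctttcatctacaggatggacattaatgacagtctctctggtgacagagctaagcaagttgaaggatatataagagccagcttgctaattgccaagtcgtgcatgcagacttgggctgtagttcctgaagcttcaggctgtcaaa

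On one strand or the other, TATAAA lay 72 and 24 bases before the start in Gcg and 31 bases before it in Ppy, and it was also found just past the start of Chga, so that 3 of 9 promoters held it against 14.2% of 27025 gene promoters. Neither TATAAA nor TGACGTCA occurred in the stretches of Pyy and Iapp. TGACGTCA, the full cAMP response element, occurred 48 bases before the start in Sst and 72 bases before it in Chgb, against 1.88% of all promoters. Positions are counted from RefSeq starts, which for Chga, Sst and Chgb differ from the starts of the GENCODE gene spans given below. By those spans TATAAA lies before the start of Chga, and TGACGTCA lies after the starts of Sst and Chgb. CANNTG, the E-box, was present in 8 of 9 promoters against 72.15% of all. A CANNTG can share 2 bases with either end of TGACGTCA. The promoters differed widely in CG content, from 0 CG dinucleotides in Ins1 to 31 in Chgb, with a median of 7 over all promoters. Such matches describe the letters only.

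Total counts per library ranged from 21605226 to 35954748. A level of 3 counts, used here as the floor for calling a gene present, corresponded to 0.0834 to 0.139 CPM, the count scaled to the library total. H2-Ab1, the targeted gene, was lower in every Aβ0/0 library, at 2469 to 3541 TPM in Aβ0/0 mTEC against 11510 to 11970 TPM in WT mTEC, so its RNA was reduced and not lost. The sorts matched their labels by markers: the summed level of 10 mTEC markers was 13410 to 24980 CPM in mTEC libraries and 2422 to 3896 CPM in cTEC libraries, and that of 10 cTEC markers was 1885 to 3374 CPM in mTEC and 12130 to 30500 CPM in cTEC. In bulk RNA of this kind, fewer cells making a transcript and less transcript per cell cannot be told apart.

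All 10 genes were above the floor in each of the 3 WT mTEC libraries. The levels are given in TPM, the transcript abundance scaled to the library and corrected for transcript length, so that genes can be compared. Chga had the highest mean, at 259.7 ± 149.6 TPM (SD, n = 3), followed by Iapp at 236 ± 12.8, Pyy at 196 ± 47.9, Ppy at 134 ± 3.91, Sst at 115 ± 66.5, Ins2 at 69.8 ± 21.2 and Gcg at 50 ± 18.99 TPM. Chgb (14.9 ± 4.02), Ptprn (2.51 ± 1.11) and Ins1 (0.599 ± 0.317) were lower. Neighbors in this order from Chga to Pyy overlapped in their ranges, as did those from Ppy to Gcg, whereas every library of Pyy was above every library of Ppy, and Gcg, Chgb, Ptprn and Ins1 were separate from each other. With 98.2% of the quantified genes below it, Iapp was among the abundant transcripts of WT mTEC, while Ins1 stood above 45.6% of genes.

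**Figure D1:**
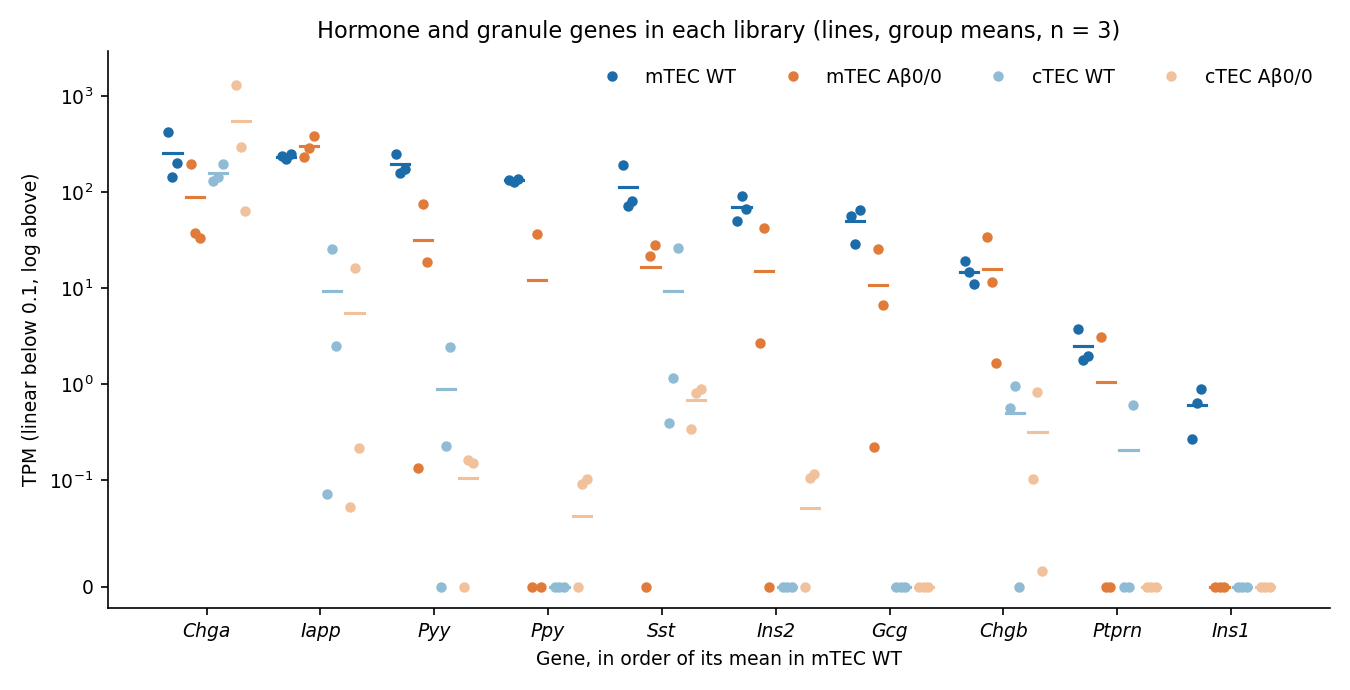
TPM of the 10 genes in each of the 12 libraries, on a scale that is linear below 0.1 and logarithmic above; points are libraries, lines are group means and colors are the 4 groups (n = 3 each). The 7 hormone genes were high in WT mTEC except Ins1, 6 of them were at 0 or under 3 TPM in 1 or more Aβ0/0 mTEC libraries, Iapp stayed between 223 and 388 TPM in all mTEC libraries, and Chga was at 33.2 TPM or more in every library.

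The insulin genes were unequal in WT mTEC. Ins2 reached 49.96, 92.1 and 67.3 TPM in replicates 1 to 3. Ins1 reached 0.265, 0.634 and 0.897 TPM, from 4, 16 and 21 counts. Every Ins2 library was therefore far above every Ins1 library, although both genes encode insulin. In these libraries 73.2% of Ins2 counts were assigned to Ins2-204, the transcript shown above. For the other genes with several coding transcripts, Ppy-201 took 71.5% of Ppy counts, Pyy-201 79.3% of Pyy counts and Gcg-201 89.5% of Gcg counts.

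The first comparison asked how far expression of these genes was a property of the medulla, by setting WT mTEC against WT cTEC. Ins2, Gcg, Ppy and Ins1 had no counts in any WT cTEC library. Against a floor of 3 counts in each cTEC library, Ppy was at least 370-fold higher in WT mTEC, Gcg at least 329-fold, Ins2 at least 178-fold and Ins1 at least 4.03-fold. Pyy (0, 0.228 and 2.44 TPM in cTEC), Iapp (0.0872, 25.4 and 2.47 TPM) and Chgb (0.566, 0.951 and 0 TPM) were detected in some cTEC libraries, all below every WT mTEC library. Model estimates, mTEC over cTEC, were log2 fold changes of 7.47 ± 1.08 for Pyy (SE, adjusted p = 0.00283, edgeR quasi-likelihood test, as in all model results below), 4.85 ± 1.23 for Iapp (adjusted p = 0.0215) and 5.11 ± 1.06 for Chgb (adjusted p = 0.00972).

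In all, 6 of the 9 genes that passed the low-count filter were higher in mTEC by this test (Ins2, Gcg, Ppy, Pyy, Iapp and Chgb), where 18.0% of 18667 genes were. Those 9 passed the filter largely through their counts in mTEC, so that their share is a description. In 9 of 10 genes every mTEC library was above every cTEC library, against 28.4% of all genes tested, among which Ins1 was not. Sst missed the threshold (log2 fold change 3.26 ± 1.38, adjusted p = 0.127), with 0.397, 1.165 and 26.25 TPM in the cTEC libraries. Ptprn also missed it (3.24 ± 1.72, adjusted p = 0.217). The high cTEC value of Sst came from WT replicate 3, in which it had 319 counts, and the same library held 27 of the 29 Pyy counts and all 53 Ptprn counts of WT cTEC. That library also had the highest summed level of mTEC markers among the WT cTEC libraries, at 3614 CPM against 2422 and 3126. Aire, among these markers, was lowest there (1.97 TPM against 2.70 and 7.87), and Iapp and Chgb were highest in replicate 2. The part of replicate 3 in these values was not tested. Without WT cTEC replicate 3 all 10 genes were higher in mTEC, with 38.1% of genes called in either direction. Iapp fell short of the threshold when all 12 libraries were fitted together (adjusted p = 0.0712), without a filter (0.0805) and with limma on the deposited log2 values (0.0754), and without any 1 of the WT mTEC libraries (0.0584, 0.0609 or 0.0625), within a range of 0.00287 to 0.0805 over the alternatives. Chgb missed it in the joint fit of 12 libraries (0.0506).

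Chga was the exception to the medullary pattern. It was at 132, 146 and 197 TPM in WT cTEC and at 429, 146 and 204 TPM in WT mTEC, so that the ranges overlapped. The log2 fold change was 0.65 ± 0.43 (adjusted p = 0.321). Chromogranin A, a marker of neuroendocrine cells, was thus the single member of the group with well over 100 TPM in every WT library of both subsets.

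The comparison of WT with Aβ0/0 mTEC asked whether loss of MHC class II altered the display of these antigens. For the 6 hormone genes other than Iapp, every WT library was above every Aβ0/0 library in TPM, against 19.4% of genes tested, although Ins2 and Gcg overlapped on TMM-scaled CPM. Ins1 was below the low-count filter and not among the genes tested. The rest passed it largely through their WT counts, so that their share is a description. The ranges of Iapp and the granule genes overlapped between genotypes. By the edgeR test, none of the 9 genes that passed the filter was called between genotypes. The adjusted p ranged from 0.355 to 0.977, none had an unadjusted p under 0.05 and the lowest was 0.0600, whereas 5.66% of 18636 genes were called. DESeq2, which called 2476 genes, also called none of them, with 2 at an unadjusted p under 0.05. These p-values do not show that the levels were equal.

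Ppy (pancreatic polypeptide) was at 136, 129.7 and 137 TPM in WT mTEC and at 0, 36.7 and 0 TPM in Aβ0/0 mTEC. The WT libraries were nearly level, 2 Aβ0/0 libraries had no count, and replicate 2 held 398 counts. The fitted log2 fold change was 3.08 ± 1.94 (WT over Aβ0/0, adjusted p = 0.558).

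Pyy, whose gene lies 5356 bases from Ppy on chromosome 11 (Ppy chr11:102099930-102101319, Pyy chr11:102106676-102107832, both on the minus strand), was at 251, 161 and 177 TPM in WT and at 0.1325, 75.7 and 18.96 TPM in Aβ0/0 mTEC. All Aβ0/0 values were below the lowest WT value, and they spanned from a single count in replicate 1 to 942 counts in replicate 2. This gave a log2 fold change of 2.295 ± 1.38 (adjusted p = 0.536).

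Ins2 (chr7:142678656-142743381, minus strand) was at 2.71, 42.3 and 0 TPM in Aβ0/0 mTEC, with 18, 408 and 0 counts. Replicate 2 came close to the lowest WT library, which had 49.96 TPM, and replicate 3 had none. Ins2 had a log2 fold change of 1.93 ± 1.68 (adjusted p = 0.709). Ins1 (chr19:52264297-52265476, plus strand) had no count in any Aβ0/0 library, and its level in WT was at least 4.12-fold above a floor of 3 counts in each Aβ0/0 library; it was below the filter and was not tested.

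Gcg (chr2:62474530-62483650, minus strand) was at 56.3, 28.65 and 65.0 TPM in WT and at 0.222, 25.5 and 6.615 TPM in Aβ0/0 mTEC. Again replicate 2 was the highest Aβ0/0 library, just under the lowest WT library. Its log2 fold change was 1.86 ± 1.27 (adjusted p = 0.604). Sst (chr16:23889573-23890958, minus strand) was at 191.5, 72.3 and 80.9 TPM in WT and at 0, 21.5 and 28.1 TPM in Aβ0/0 mTEC. Here replicates 2 and 3 were alike and replicate 1 had no count. The log2 fold change of Sst was 2.525 ± 1.39 (adjusted p = 0.488).

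On the TPM scale 6 of 10 genes had every WT mTEC library above every Aβ0/0 library, against 19.4% of genes tested. On TMM-scaled CPM, the scale of the edgeR fit, 4 genes did (Ins1, Sst, Ppy and Pyy), against 18.2% of genes. Ins2 then had 12.4 CPM in its lowest WT library and 14.3 CPM in its highest Aβ0/0 library, and Gcg 22.35 and 23.7 CPM, so that both overlapped. Replicate 2 was the highest Aβ0/0 library for Ins2, Gcg, Ppy and Pyy on both scales. Apart from Ins1, which was below the filter, the genes with separate ranges passed it largely through their WT counts, so both shares are a description.

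Iapp (chr6:142298423-142303961, plus strand) was at 237, 223 and 249 TPM in WT and at 234.5, 289 and 388 TPM in Aβ0/0 mTEC. The ranges overlapped and the 2 highest values were from Aβ0/0 libraries. The log2 fold change was -0.505 ± 0.26 (adjusted p = 0.4515). The beta cell peptide gene thus had 2874 or more counts in all 6 mTEC libraries, including Aβ0/0 replicates 1 and 3, which had 18 counts and none for Ins2.

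Of the granule genes, Chga (chr12:102554969-102565028, plus strand) was at 37.9 and 33.2 TPM in Aβ0/0 replicates 2 and 3 and had 6413 counts, or 200 TPM, in replicate 1. The WT values were 429, 146 and 204 TPM. Replicate 1 lay within the WT range and the other two were below it. It had a log2 fold change of 1.505 ± 0.67 (adjusted p = 0.355). Chgb (chr2:132781278-132795079, plus strand) was at 19.04, 14.8 and 11.0 TPM in WT and at 34.4, 11.6 and 1.65 TPM in Aβ0/0 mTEC, with no direction common to the libraries (log2 fold change -0.12 ± 0.84, adjusted p = 0.977). Ptprn (chr1:75247027-75264502, minus strand) was at 3.78, 1.77 and 1.98 TPM in WT and at 3.13, 0 and 0 TPM in Aβ0/0 mTEC. Its 201 counts in Aβ0/0 replicate 1 stood against none in the other two (log2 fold change 1.31 ± 2.12, adjusted p = 0.8655).

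**Figure D2:**
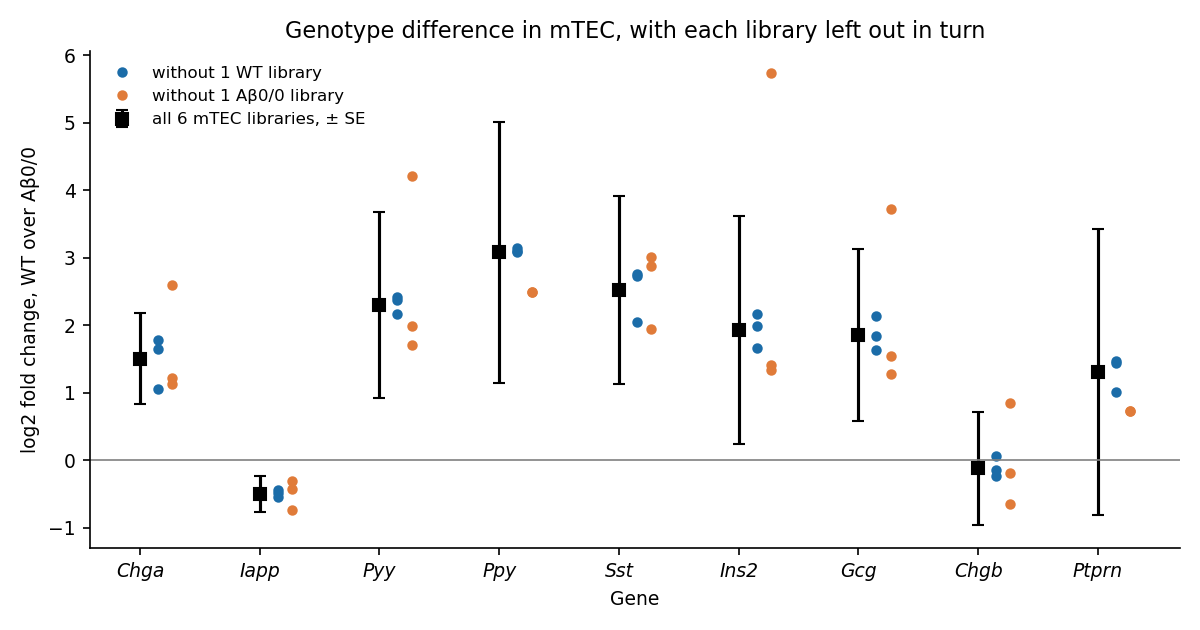
Log2 fold change of WT over Aβ0/0 mTEC for the 9 genes tested; black squares with bars are the fit of all 6 libraries ± SE, and colored points are fits without 1 WT or 1 Aβ0/0 library. Points are omitted where the Aβ0/0 libraries left held no count of the gene (Ppy without replicate 2, Ptprn without replicate 1); Ins2, Gcg and Pyy had their largest fold changes when Aβ0/0 replicate 2 was left out, and Chgb changed sign.

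The calls among the 10 genes depended on single libraries, as did the share of all genes called. Without Aβ0/0 replicate 1, Chga (adjusted p = 0.0298), Ptprn (0.0298), Iapp (0.0429) and Sst (0.0499) passed the threshold, Iapp toward higher values in Aβ0/0, with 12.02% of genes called. Without replicate 2, Ppy passed (adjusted p = 0.0305), with 0.423% of genes called. The fold changes of Ins2, Gcg and Pyy were then 5.73, 3.73 and 4.22 on the log2 scale without passing it. Leaving out any other library gave no call among the 10 genes. In those fits 0.0653% of genes were called without Aβ0/0 replicate 3 and 0% without any 1 WT library. Over all alternatives the adjusted p ranged from 0.0305 to 0.870 for Ppy, from 0.0499 to 0.864 for Sst, from 0.0298 to 0.779 for Chga, from 0.0429 to 0.967 for Iapp and from 0.0298 to 0.987 for Ptprn.

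The spread between replicates was described within each genotype. In WT mTEC the SD of log2(CPM + 0.5) over the 3 libraries had a median of 0.419 over the 9 genes tested, from 0.0959 for Ppy to 0.666 for Chga, where all genes tested had a median of 0.266 and a 90th percentile of 0.630. In Aβ0/0 mTEC it had a median of 2.54, from 0.497 for Iapp to 3.02 for Pyy, against a median of 0.586 and a 90th percentile of 1.83 over all genes. Thus 7 of 9 genes exceeded the 90th percentile in Aβ0/0 mTEC (all but Iapp and Chga) and 2 of 9 in WT mTEC (Chga and Sst). No test of this spread was made.

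**Figure D3:**
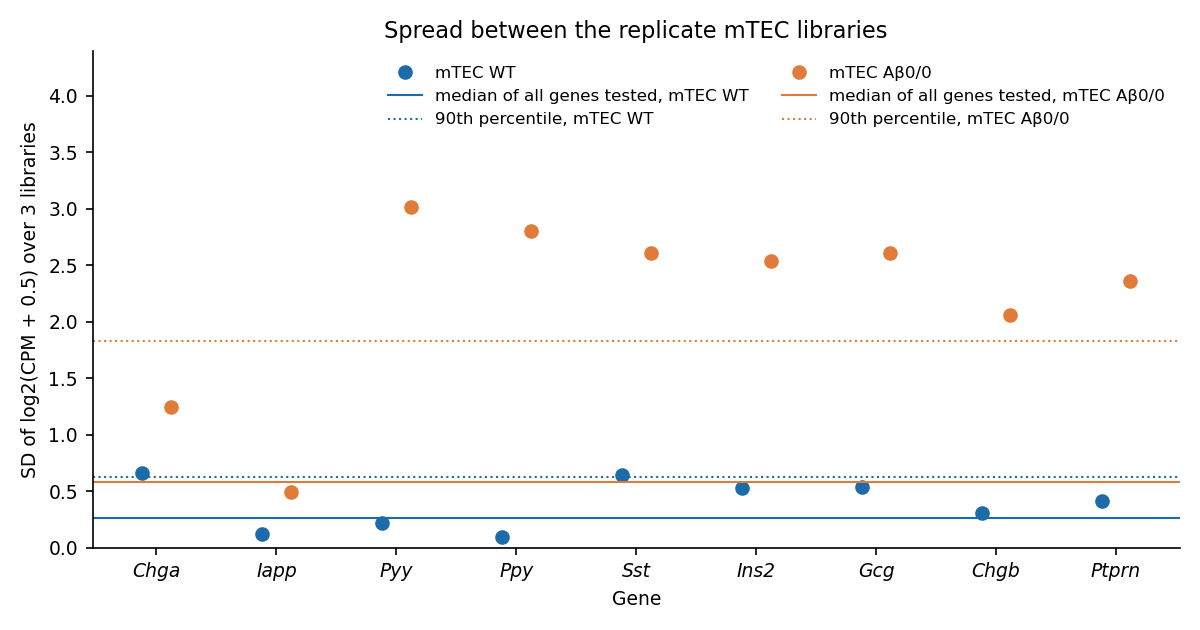
Standard deviation of log2(CPM + 0.5) over the 3 replicate mTEC libraries for the 9 genes tested, in WT and Aβ0/0 (points); solid lines are medians and dotted lines 90th percentiles of all 18636 genes tested, in the color of the genotype. All 9 points were higher in Aβ0/0 than in WT, and Iapp had the lowest Aβ0/0 value, 0.497.

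The make-up of the hormone RNA differed between the libraries as well. The 7 hormone genes summed to 802 ± 109 TPM in WT mTEC and 390.1 ± 134 TPM in Aβ0/0 mTEC (SD, n = 3). Without Iapp the sums were 566 ± 105 and 86.15 ± 103 TPM. Iapp made up 25.7, 31.6 and 32.0% of hormone RNA in the WT libraries, and 98.7, 58.9 and 87.9% in the Aβ0/0 libraries. The members above the floor numbered 10 in each WT mTEC library, and 6, 8 and 6 in the Aβ0/0 libraries.

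**Figure D4:**
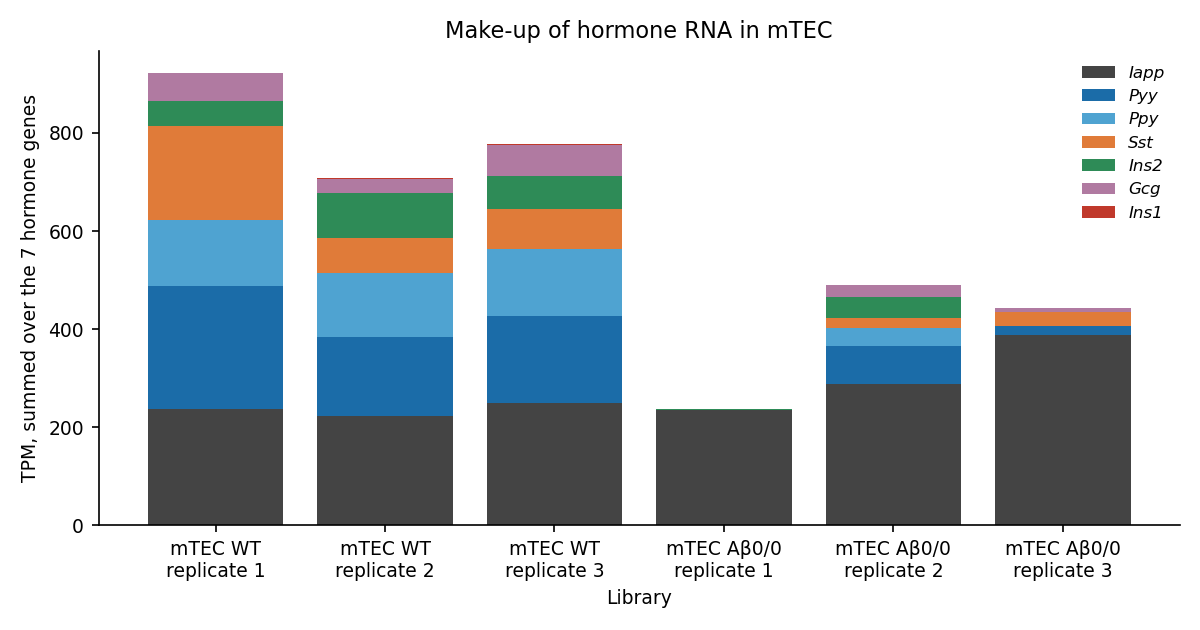
TPM of the 7 hormone genes stacked for each mTEC library, with the axis from 0. Iapp (dark) was of similar height in all 6 libraries, 223 to 388 TPM, whereas the remaining hormones together summed to 484 to 684.5 TPM in WT and to 3.06, 202 and 53.7 TPM in Aβ0/0 replicates 1 to 3.

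Regulators and markers of other cells are given beside these levels. Aire was at 381.5 ± 212.5 TPM in WT and 77.3 ± 29.3 TPM in Aβ0/0 mTEC, a log2 fold change of 2.175 ± 0.36 (adjusted p = 0.0352, from 3.07e-06 to 0.138 over the alternatives). The call of Aire was lost on leaving out any 1 library except Aβ0/0 replicate 1, with adjusted p from 0.0673 (without Aβ0/0 replicate 2) to 0.138 (without WT replicate 1). It was also lost on all 12 libraries (0.0959), with limma on the deposited log2 values (0.107), under a filter on a mean count of 10 (0.0584), without a filter (0.0610) and with the replicate number as a block (0.102). Fezf2, which controls a further set of tissue antigens in mTEC, did not pass the threshold, at 247 ± 39.2 and 143.5 ± 17.0 TPM (log2 fold change 0.63 ± 0.21, adjusted p = 0.2085). The marker sums were not tested. The summed level of 7 granulocyte genes was 559 to 735 CPM in WT and 76.4 to 311 CPM in Aβ0/0 mTEC (Elane and Ngp were at 0 in all Aβ0/0 libraries), and that of 8 dendritic and B cell genes was 21.7 to 30.3 CPM in WT and 2.14, 16.0 and 2.46 CPM in Aβ0/0 replicates 1 to 3 (Cd209a and Itgax at 0). The Aβ0/0 library with the most hormone RNA besides Iapp, replicate 2, thus also had the highest level of those dendritic and B cell genes. The ranges of the remaining sums overlapped between genotypes: thymocyte genes summed to 83.7 to 185 CPM in WT and 32.3 to 139 CPM in Aβ0/0 mTEC, erythroid genes to 239 to 317 and 81.3 to 422 CPM, and endothelial and fibroblast genes to 191 to 247 and 196 to 397 CPM. The part of Aire and of these cells in the hormone levels was not tested.

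In cTEC most hormone genes were near the floor in both genotypes. Ins1 and Gcg had no count in any cTEC library, and Ins2 and Ppy had 1 count each in 2 Aβ0/0 libraries and none elsewhere. Sst was at 0.336, 0.807 and 0.887 TPM in Aβ0/0 cTEC. Iapp was detected mainly in replicate 2 of each genotype, at 25.4 TPM in WT and 16.4 TPM in Aβ0/0 cTEC. After filtering, 3 genes were tested between genotypes (Iapp, Chga and Chgb). None was called and none had an unadjusted p under 0.05, by edgeR or by DESeq2, where 0.0194% of 15432 genes were called.

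Chga was abundant in cTEC of both genotypes. It was at 1324, 294 and 64.6 TPM in Aβ0/0 cTEC, against 132, 146 and 197 TPM in WT cTEC. The Aβ0/0 libraries included both the highest and the lowest value of Chga in cTEC, and replicate 1 held 43142 counts. The log2 fold change, WT over Aβ0/0, was -1.56 ± 0.82 (adjusted p = 1.00), and it was -0.21 without Aβ0/0 replicate 1.

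Within Aβ0/0 mice, mTEC were set against cTEC in the same way. Iapp (log2 fold change 5.77 ± 1.69, adjusted p = 0.104), Chgb (5.56 ± 1.67, adjusted p = 0.111) and Chga (-2.46 ± 1.01, adjusted p = 0.2555) were the 3 genes tested; all had an unadjusted p under 0.05 and none passed the adjusted threshold, where 5.60% of 15687 genes were called. Chga was the one gene with a higher mean in cTEC. DESeq2 called 6 genes higher in mTEC (Ins2, Gcg, Sst, Pyy, Iapp and Chgb), with 16.9% of genes called, and edgeR on all 12 libraries called Gcg and Pyy, with 9.35% of genes called. Gcg was at 0 in all cTEC libraries, and its 0.222, 25.5 and 6.615 TPM in Aβ0/0 mTEC included a library of 4 counts, near the floor. In 3 of 10 genes (Gcg, Iapp and Chgb) every mTEC library was above every cTEC library, against 12.7% of genes tested, among which Gcg was not.

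Whether the effect of genotype differed between mTEC and cTEC was tested by an interaction term. None of the 9 genes tested by edgeR was called, nor any of the 7 with a DESeq2 result, where edgeR called 0.0103% of 19461 genes, and 1 gene had an unadjusted p under 0.05 with either tool. By edgeR that gene was Chga, which was higher in WT than in Aβ0/0 mTEC and lower in WT than in Aβ0/0 cTEC in the mean (interaction 3.11 ± 1.21 on the log2 scale, adjusted p = 0.612).

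Genes acting alongside these antigens in endocrine cells were described by lists. Listed genes at or near 0 in a group passed the filter largely through the other group, so that the shares called are a description. Of 7 prohormone processing genes, 4 were higher and 1 was lower in WT mTEC than in WT cTEC, where 18.0% of all genes were higher. The higher ones were Pcsk1n, Pcsk1, Scg5 and Pam: Pcsk1, a proprotein convertase, was at 1.54 ± 0.407 TPM in mTEC and 0.00268 ± 0.00465 TPM in cTEC, and Scg5, the chaperone of convertase 2, at 87.6 ± 13.0 and 5.03 ± 3.54 TPM. Cpe, the carboxypeptidase that trims prohormones, was lower in mTEC (log2 fold change -2.24 ± 0.26, adjusted p = 0.00113). Between genotypes in mTEC, Pcsk1n (1.46 ± 1.35 TPM in WT, 0.00862 ± 0.0149 in Aβ0/0) and Qpct (1.10 ± 0.697 and 0.00995 ± 0.0172 TPM), the glutaminyl cyclase, were higher in WT, that is 2 of 7 against 5.66% of all genes called in either direction. The median log2 fold change of the list was -0.06 between genotypes and 1.31 between subsets, against 0.00257 and 0.0618 over all genes tested.

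Of the other 14 granule and exocytosis genes, 8 were higher in WT mTEC than in WT cTEC, against 18.0% of all genes, and 3 of 13 tested were higher in WT than in Aβ0/0 mTEC, against 5.66% of all genes called in either direction (median log2 fold change 2.57 and 1.21). The 8 became 5 without WT mTEC replicate 1 or with limma on the deposited log2 values, and 12 without WT cTEC replicate 3. All genes called in either direction moved too, from 26.8% to 17.7%, 11.3% and 38.1% in that order. Those higher in WT than in Aβ0/0 mTEC were Cadps, the priming factor of dense-core granules, at 180.0 ± 18.4 against 29.1 ± 19.7 TPM (log2 fold change 2.34 ± 0.26, adjusted p = 0.0352), Slc18a1, a vesicular monoamine transporter, at 23.1 ± 5.32 against 5.58 ± 0.975 TPM (2.36 ± 0.33, adjusted p = 0.0352), and Scgn, encoding secretagogin, at 9.39 ± 4.397 against 0.0114 ± 0.0197 TPM. Resp18, a granule protein related to IA-2, was high in both genotypes (246 ± 34.2 and 135 ± 63.5 TPM, adjusted p = 0.507).

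Other hormone and peptide genes of the gut were mostly medullary as well. Of 13 such genes, 12 were tested and 11 were higher in WT mTEC than in WT cTEC, against 18.0% of all genes tested (median log2 fold change 6.26, or 6.02 with genes at 0 in cTEC set at their bound). Tph1, which encodes an enzyme and not a peptide, is counted among the 13. The 11 became 6 without WT mTEC replicate 1 and 7 in a joint fit of all 12 libraries. All genes called in either direction likewise fell, from 26.8% to 17.7% and 14.2%. Between genotypes, 5 of 12 tested were higher in WT mTEC and none lower, against 5.66% of all genes called in either direction (median log2 fold change 3.74, or 3.26 with such genes at their bound). Most of those called were at or near 0 in Aβ0/0 mTEC and passed the filter through their WT counts, so that this share is a description. Sct, the secretin gene, was at 136, 106 and 122 TPM in WT and 37.85, 23.9 and 13.45 TPM in Aβ0/0 mTEC (log2 fold change 2.145 ± 0.40, adjusted p = 0.0352). Nts, encoding neurotensin, was at 98.7, 73.9 and 77.9 TPM in WT and at 1.76, 0.0310 and 0.0392 TPM in Aβ0/0 mTEC. Vip (7.65 ± 3.92 TPM in WT, 0.00611 ± 0.0106 in Aβ0/0), Adcyap1 (6.985 ± 2.24, 0 in Aβ0/0) and Nmu (1.14 ± 0.2955, 0 in Aβ0/0) were the others.

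**Figure D5:**
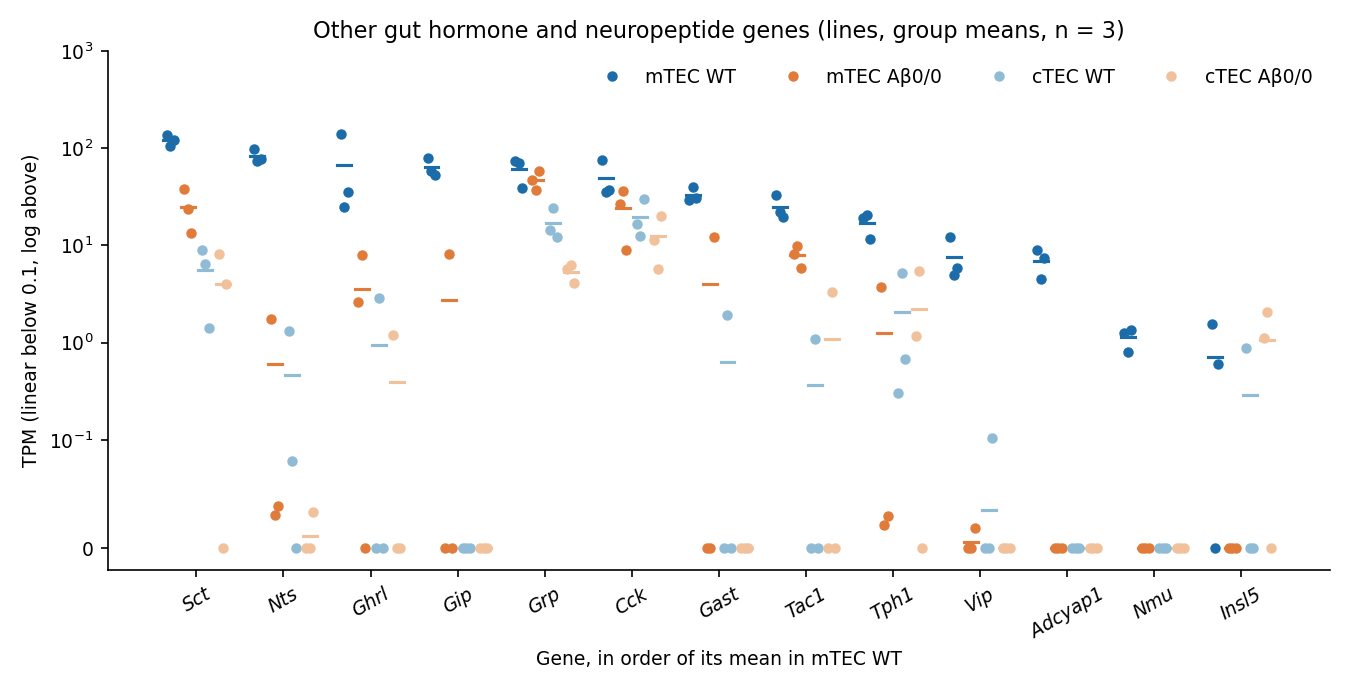
TPM of 13 genes listed as other gut hormones and neuropeptides, the enzyme gene Tph1 among them, in each library, drawn as for the 10 genes above (linear below 0.1, logarithmic above; lines are group means, n = 3). Sct and Nts had all WT mTEC libraries above all Aβ0/0 mTEC libraries, Adcyap1 and Nmu had no count in Aβ0/0 mTEC, and Grp and Cck overlapped between the genotypes.

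In the next 4 lists too, the share to set beside each count between genotypes is the 5.66% of all 18636 genes called in either direction. Genes at 0 in Aβ0/0 mTEC again passed the filter through their WT counts, so that these counts are a description. Among 10 islet autoantigens outside the members, 1 of 8 tested differed between genotypes in mTEC: Gad1, the larger glutamate decarboxylase, was at 10.4 ± 5.515 TPM in WT and 0.1375 ± 0.217 TPM in Aβ0/0 (adjusted p = 0.0352, list median 0.06). Of 21 islet and enteroendocrine transcription factors, 4 of 18 tested were higher in WT mTEC and none lower (median 0.77). Among them were Neurog3 (1.77 ± 0.870 TPM in WT) and Pdx1 (0.451 ± 0.241 TPM), both with no count in Aβ0/0 mTEC, and Hhex (0.787 ± 0.467 and 0.0171 ± 0.0296 TPM). Of 19 hormone receptor genes, 4 of 15 tested were higher in WT (median 0.64): Gipr, Sstr5 and Glp1r had no count in Aβ0/0 mTEC and mean levels of 1.955, 0.728 and 1.04 TPM in WT, and Glp2r was at 0.621 ± 0.2145 and 0.00375 ± 0.00650 TPM. Of 10 regulators of promiscuous expression, all tested, 3 were higher in WT, namely Aire, Sirt1 (55.0 ± 8.64 against 18.1 ± 0.977 TPM) and Irf8 (114 ± 16.1 against 46.6 ± 14.2 TPM), with a median of 0.54.

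The genotype calls in these lists were not stable to the model, and neither was the share of all genes called. That share was 0.103% in the joint fit, 0.0989% without a filter and 0.0578% under the filter on a mean count of 10. It was 11.7% with DESeq2, 2.04% with limma and 0% with the replicate block. Without Aβ0/0 replicate 3 it was 0.0653%, and without replicate 2 it was 0.423%. In a joint fit of all 12 libraries 1 gene of the lists was called (Sirt1). Without a filter Cadps and Sirt1 were called, and under a filter on a mean count of 10 none was, whereas DESeq2 called all of the genes named here as higher in WT and a few others, among them Insm1, Tac1 and Vgf (higher in WT) and Scg5, which it called lower in WT (87.6 against 133.5 TPM). With limma on the deposited log2 values 10 of the genes kept their call: Scgn, Slc18a1, Adcyap1, Nmu, Nts, Vip, Gad1, Glp2r, Irf8 and Sirt1. With the replicate number as a block no gene of the lists was called. Leaving out any 1 WT library left 0 genes called between genotypes in the whole table. Without Aβ0/0 replicate 3 no gene of the lists was called, and without replicate 2 only Cadps and Adcyap1 of those above and, in addition, Gip. Without replicate 1, where 12.02% of all genes were called, the counts were 4 granule genes, 6 gut hormones, 5 receptors, and 8 transcription factors higher and 1 lower in WT. Those of the other lists were 2, 1 and 3 as before. Between subsets in WT, 3 of 9 tested islet autoantigens were higher in mTEC (Gad1, Car12 and Ica1), as were 8 of 17 transcription factors, 9 of 14 receptors and 4 of 10 regulators, against 18.0% of all genes, while Isl1 and Deaf1 were lower. In these lists, 1 autoantigen (Gad1) was called without WT cTEC replicate 1 or without any 1 WT mTEC library, and 5 transcription factors were called higher without WT mTEC replicate 2. Deaf1 was not called without WT mTEC replicate 2 or 3. In the joint fit of all 12 libraries the counts were 1 autoantigen, 4 transcription factors and 5 receptors, and with limma 1, 6 and 6. All genes called in either direction between subsets were 26.8% in the fit of the WT libraries alone, 14.2% in the joint fit and 11.3% with limma. They were 25.0% without WT cTEC replicate 1 and 17.7 to 18.3% without any 1 WT mTEC library.

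The genes whose log2 CPM ran most closely with each member over the 12 libraries were named for the 9 members that passed the filter. For Ppy they were Cyp1a2 (Pearson r = 1.00), Defa33 (0.997) and Ly6f (0.997). For Pyy they were Tac2 (0.994), Gm17416 (0.986) and Gcg (0.985), and for Gcg Tac2 (0.988), Sprr2i (0.988) and Gm17416 (0.988). For Ins2 they were Klk9 (0.990), Cga (0.990) and Mup4 (0.9885), for Sst Caln1 (0.985), Ly6g (0.964) and Pde6h (0.948), and for Ptprn Ceacam16 (0.993), Gm4956 (0.990) and Mogat2 (0.983). For Iapp they were Ifi211 (0.980), Rbm24 (0.9695) and Ccl20 (0.968), and for Chgb Plet1 (0.965), Hamp (0.965) and Gsta2 (0.963). Chga stood apart with lower values (Duox1 0.925, Agtpbp1 0.8465 and Spink8 0.843), and between Chga and the other 8 tested members r ran from -0.28 (Iapp) to 0.32 (Ptprn). These values describe 12 libraries that share the contrast of mTEC with cTEC and differ in depth, and carry no test.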

How the data were processed

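Libraries were made with the SMART-Seq v4 kit and sequenced by the authors, who demultiplexed them with bcl2fastq 2.20.0, trimmed with Trim Galore and quantified with kallisto 0.43 (mm10). The authors deposited estimated counts and TPM per transcript for each library, and 1 table of log2 values (regularized log, DESeq2) per gene. From these, transcripts were summed to genes through GENCODE vM21 (0.450 to 0.512% of counts had no match), and the sums were rounded and tested with edgeR 4.0.16 (quasi-likelihood, robust, TMM, filterByExpr, R 4.3.3), adjusted by Benjamini-Hochberg over all genes with a threshold of 0.05. Alternatives used DESeq2 1.42.0, limma 3.58.1 on the deposited log2 values, other filters and scaling, and all 12 libraries. Scripts were tested on simulated data.

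Groups followed the sample titles, and replicates are separate pools. In the sort records cTEC and mTEC of 1 number come from 1 pool, which pairs the subset comparisons (correlation of deviations 0.0248 to 0.267), whereas for WT and Aβ0/0 those records list yields under shared numbers without saying whether a number marks 1 joint sort. The 10 genes, the lists and the tests were chosen with earlier results of these data known. Text names the 10 genes, genes of the related lists past the threshold between genotypes in mTEC (at most 6 a list, otherwise the 2 highest in WT mTEC; marker lists are given as sums, and the calls of larger lists between subsets as counts), Aire, Fezf2, H2-Ab1 and the 3 closest genes per member. Folds against 0 use a floor of 3 counts per library and cover counting error only. Resp18, Scg5 between genotypes, Insm1, Tac1, Vgf, Cck, Gip and Grp were named after their values were seen. Tph1 was named as the enzyme gene of its list. The values of 1 list gene are not reported here.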

Additional observations from a re-analysis of the deposited data

How the results depend on the processing

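Of 303 recomputed values of single genes, 299 kept their direction and 262 also their side of the threshold, while 26 lost and 11 gained significance. The 4 reversals were all of Chgb between genotypes in mTEC, which became 0.52 with limma on the deposited log2 values and 0.56 with the replicate block, and ran from -0.66 to 0.85 over the fits without 1 library; the cause was not tested. The number of the 10 genes called ran from 0 to 4 (mTEC, between genotypes), from 5 to 10 (WT, between subsets) and from 0 to 1 (Aβ0/0, between subsets) when 1 library was left out, and in Aβ0/0 it was 6 with DESeq2 and 2 with edgeR on all 12 libraries. In mTEC the genes called between genotypes numbered 1054 of all tested, but 2476 with DESeq2, 658 with limma, 27 without a filter, 20 on all 12 libraries, 11 under a filter on a mean count of 10, and 0 to 2377 without 1 library (0 without any 1 WT library). With the replicate number as a block, 0 genes in all and 0 of the 10 were called between genotypes in mTEC; whether that number marks a joint sort of WT and Aβ0/0 is not stated (correlation of deviations 0.288, 0.114 and 0.0627). The block by pool changed no call among the 10 genes between subsets, where 6 remained called in WT and 0 in Aβ0/0. Genes called in all numbered 3 in cTEC between genotypes (123 with DESeq2), 2 for the interaction (409 with DESeq2, 780 with limma), 4997 in WT between subsets (2760 on all 12 libraries) and 878 in Aβ0/0 (2771 with DESeq2, 1819 on all 12 libraries, 260 with limma). The ratio of summed hormone level, WT over Aβ0/0 mTEC, was 2.06 in TPM and 1.605 in CPM. The TMM-scaled ranges were compared after seeing the data. Levels under 0.0834 to 0.139 CPM could not be told from absence at this depth.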
